A study of Mus musculus with 6 samples.

Results

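Oxidative phosphorylation (OXPHOS) subunit genes of both genomes were followed in splenic CD8+ T cells of C57BL/6 mice of WT genotype. Members were picked by symbol from the deposited table of normalized counts: Ndufa, Ndufb, Ndufc, Ndufs and Ndufv genes, Uqcr genes, Cox4 to Cox8 genes, Atp5 genes, Sdha to Sdhd, Cyc1, Cycs, and the mt-Nd, mt-Co, mt-Cytb and mt-Atp genes. This gave 97 of the 19323 genes listed, 84 of the nuclear genome and 13 of the mitochondrial genome. Complex I had 42 members, complex II 4, complex III 10, complex IV 18, complex V 22, and 1 member was cytochrome c. Ndufa4, named for complex I, was placed in complex IV, where its protein sits. By symbol, 3 members were pseudogenes (Atp5k-ps2, Atp5l-ps1 and Atp5l2-ps), and Atp5s encodes an assembly-related protein and not a subunit of the ATP synthase.

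The mice were 6 weeks old when they were put on MCDHFD or ND, and they stayed on the diet for 7 weeks. There were 3 MCDHFD libraries and 3 ND libraries, all of WT mice, spleen and primary CD8+ T cells. The labels leave both diet names unexpanded and call the animals models of MASH, in which the fatty liver is inflamed. Nothing in them says that replicates were separate animals, so the p-values below reflect the spread between these libraries, which may be technical.

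OXPHOS turns the electrons of NADH and succinate into a proton gradient and then into ATP. Complex I (NADH dehydrogenase) and complex II (succinate dehydrogenase, also an enzyme of the citric acid cycle) pass electrons to ubiquinone, complex III passes them on to cytochrome c, complex IV (cytochrome c oxidase) hands them to oxygen, and complex V (ATP synthase) uses the gradient. All of the complexes except complex II combine subunits of the nuclear and the mitochondrial genome, the mitochondrial ones being made inside the organelle. In T cells, naive and memory cells are known to lean on OXPHOS, and activation is accompanied by growth of the mitochondrial network and a turn to aerobic glycolysis.

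Per library, the normalized counts added up to between 14119816 and 14752121. Libraries of one diet correlated at 0.985 to 0.988 and libraries of different diets at 0.897 to 0.916 (Pearson's r across tested genes of log2 values, as a description). The labelled cell type was checked by its markers: Cd8a averaged 5264 ± 458 normalized counts in MCDHFD and 13784 ± 350.4 in ND (mean ± SD, n = 3 each), and all 16 genes of a CD8 T cell identity list passed as lower in MCDHFD. The list took 0.386% to 0.451% of normalized counts in MCDHFD libraries and 0.773% to 0.784% in ND libraries. Of 24 tested macrophage genes, 22 passed as higher and 1 as lower, and the macrophage list took 2.89% to 3.50% in MCDHFD and 0.595% to 0.724% in ND. All 20 tested erythroid genes and 14 of 16 neutrophil genes passed as higher, while 13 of 15 dendritic and 12 of 14 B cell genes passed as lower. Of all 13430 tested genes, 30.3% passed as higher and 28.1% as lower. These values stand beside every result below, and their part in those results was not tested. In such bulk RNA, fewer cells of a type and less RNA per cell cannot be told apart.

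The comparison asks how the transcripts of the respiratory chain differed in these cells after MCDHFD. Most OXPHOS subunit genes differed little. Of the 93 members with a mean of at least 10 normalized counts, 28 passed the test (30.1%), 19 of them higher and 9 lower in MCDHFD, with limma at a Benjamini-Hochberg adjusted p under 0.05. Over all 13430 genes tested, 58.4% passed, 30.3% as higher and 28.1% as lower, so the share of subunit genes that passed was smaller than that of tested genes as a whole. Fold changes were small as well: the median size of the log2 fold change, sign left aside, was 0.16 for the members and 0.40 for all tested genes. Only 1 member, Cox6b2, passed with a change of at least 2-fold, against 20.7% of tested genes. The diets did not overlap in 39 of the 93 members, where MCDHFD lay above ND in 26 and below it in 13. Over all tested genes the share without overlap was 65.4%.

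The balance of higher and lower members moved with the scaling of the libraries. Under quantile scaling 14 members passed as higher and 18 as lower, beside 19 and 9 with the deposited scaling. With the mean log2 level of the CD8 T cell identity list set equal in all libraries, the median of all tested genes' log2 fold changes moved to 0.9985, and 82.3% of tested genes passed as higher. There, 91 members passed as higher in limma and the other 2, Atp5k and Ndufs5, had positive log2 fold changes of 0.47 and 0.51, and the median log2 fold change was 1.05 for the nuclear members and 1.09 for the mitochondrial members. Both medians lay close to the shift of the tested genes as a whole, as they did with the deposited scaling, where they were 0.05 and 0.09 against 0.0038 for all tested genes. All 9 members that passed as lower with the deposited scaling had a positive log2 fold change under the equal-identity scaling, and each stayed below that shift. Directions below are those of the deposited scaling.

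**Figure D1:**
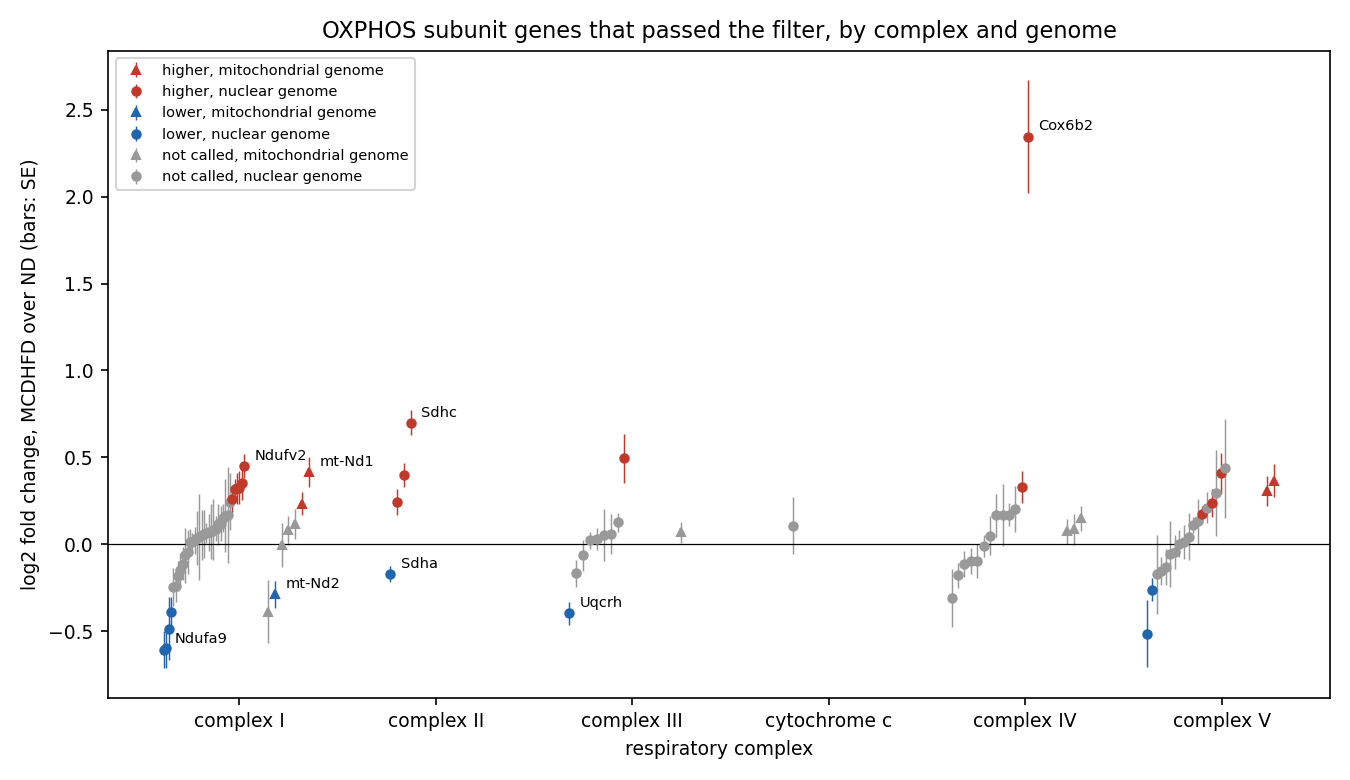
Log2 fold change of normalized counts, MCDHFD over ND, with its standard error as a bar, for the 93 OXPHOS subunit genes that passed the filter, grouped by complex on the horizontal axis. Circles are nuclear and triangles mitochondrial genes, coloured by the limma call at an adjusted p under 0.05 with the deposited scaling. Cox6b2 at 2.35 stands apart, all 4 genes of complex II passed (against 58.4% of all tested genes), and the other members lie between -0.61 and 0.70.

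All 4 members of complex II passed, a small group set against 58.4% of all tested genes. Sdhc and Sdhd, the pair that anchors the enzyme in the inner membrane and forms its ubiquinone site, rose, as did Sdhb, the iron-sulphur subunit. Sdha, the flavoprotein that oxidises succinate, fell slightly. Sdhc lies on chromosome 1 (171127165 to 171150603, minus strand), Sdhd on chromosome 9 (50596357 to 50603812, minus strand), Sdhb on chromosome 4 (140961203 to 140979193, plus strand) and Sdha on chromosome 13 (74322254 to 74350280, minus strand), all protein-coding, in GENCODE annotation of mm10.

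No start region was found for Sdhc, the complex II gene with the largest change. Because the subunits of this one enzyme moved in opposite directions with the deposited scaling, the start regions of Sdha, Sdhb and Sdhd are shown. These regions run from 250 bases before to 50 bases after the transcript start in RefSeq on GRCm38.p6. They lie at chr13:74350191-74350490 on the minus strand, chr4:140961021-140961320 on the plus strand and chr9:50603800-50604099 on the minus strand. Each is written 5′ to 3′ along its own strand, and capitals mark letters that match 1 of 2 patterns on either strand: GCGC followed by A, any base and GCGC again, the pattern of the nuclear respiratory factor NRF1, and CCGGAAG, the pattern of the ETS-family factor GABPA.
Sdha: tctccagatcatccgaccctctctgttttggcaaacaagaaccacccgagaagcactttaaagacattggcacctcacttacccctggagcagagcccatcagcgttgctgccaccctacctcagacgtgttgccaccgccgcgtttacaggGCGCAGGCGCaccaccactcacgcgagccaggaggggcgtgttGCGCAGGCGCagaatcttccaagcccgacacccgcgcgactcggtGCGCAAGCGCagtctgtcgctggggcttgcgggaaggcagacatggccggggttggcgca
Sdhb: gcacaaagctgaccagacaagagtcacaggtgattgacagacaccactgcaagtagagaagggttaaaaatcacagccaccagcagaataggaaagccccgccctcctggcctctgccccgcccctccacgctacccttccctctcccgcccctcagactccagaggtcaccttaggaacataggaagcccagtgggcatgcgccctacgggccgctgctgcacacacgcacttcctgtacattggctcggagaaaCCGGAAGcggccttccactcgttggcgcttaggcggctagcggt
Sdhd: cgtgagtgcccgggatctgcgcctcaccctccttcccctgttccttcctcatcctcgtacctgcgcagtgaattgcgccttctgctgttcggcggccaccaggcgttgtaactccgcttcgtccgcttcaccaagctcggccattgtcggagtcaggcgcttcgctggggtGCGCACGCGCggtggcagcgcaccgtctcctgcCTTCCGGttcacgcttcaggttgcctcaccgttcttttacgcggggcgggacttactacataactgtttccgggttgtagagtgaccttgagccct
Sdha held the NRF1 pattern 3 times, Sdhd held it once beside 1 GABPA match, and Sdhb held 1 GABPA match. A match is a description of the letters and not a bound site.

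Sdhc had 1039, 1152 and 1197 normalized counts in the 3 MCDHFD libraries, against 665, 727 and 692 in the 3 ND libraries. Its log2 fold change, 0.70 (SE 0.07, adjusted p = 4.83e-05 in limma), was the largest among complex II genes, and the lowest MCDHFD library lay well above the highest ND library. Sdhd had 1083, 1238 and 1096 normalized counts in MCDHFD and 882, 879 and 828 in ND, and its log2 fold change was 0.40 (SE 0.07, adjusted p = 0.00116 in limma). Sdhb had 899.8, 1038 and 1055 in MCDHFD and 868, 842 and 809 in ND. Its log2 fold change of 0.24 (SE 0.08, adjusted p = 0.0210 in limma) rested on a narrow gap, since the lowest MCDHFD library was near the highest ND library. The call of Sdhb was lost without MCDHFD replicate 2 or 3 or ND replicate 2 or 3 (largest limma adjusted p = 0.0769), under quantile scaling and in both count tests. Those count tests, edgeR and DESeq2, were themselves run without ND replicate 3, here and below. Sdha had 3447, 3514 and 3459 in MCDHFD and 3978, 3851 and 3891 in ND, for a log2 fold change of -0.17 (SE 0.05, adjusted p = 0.0107 in limma) without overlap of the diets.

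The shift of Sdhb, Sdhc and Sdhd relative to Sdha shows in ratios within each library, which a single scaling factor per library leaves as they are. A ratio does not give the direction of either gene. With CD8 T cell identity set equal, the log2 fold change of Sdha was 0.83. The ratio of Sdhc to Sdha was 0.325 ± 0.0224 in MCDHFD and 0.178 ± 0.0108 in ND (SD, n = 3 each). For Sdhd to Sdha it was 0.328 ± 0.0213 in MCDHFD and 0.221 ± 0.00773 in ND, and for Sdhb to Sdha 0.287 ± 0.0231 in MCDHFD and 0.215 ± 0.00616 in ND. All 3 ratios were higher in every MCDHFD library than in every ND library. Each gave p = 0.1 in a two-sided exact permutation test over 20 arrangements, the smallest p that 3 against 3 libraries allow, and the pairs were chosen after their values were seen. Per kilobase of annotated exon, the mean levels of normalized counts were 842 in MCDHFD and 947 in ND for Sdha, 925 in MCDHFD and 701 in ND for Sdhd, 445 in MCDHFD and 375 in ND for Sdhb, and 347 in MCDHFD and 214 in ND for Sdhc. Sdhc had the lowest level per length of complex II in both diets. Of the 4 tested assembly factors of complex II, Sdhaf2, which helps attach FAD to Sdha, fell to 394 ± 24.8 normalized counts in MCDHFD, against 524 ± 28.1 in ND (log2 fold change -0.41, limma adjusted p = 0.00223).

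**Figure D2:**
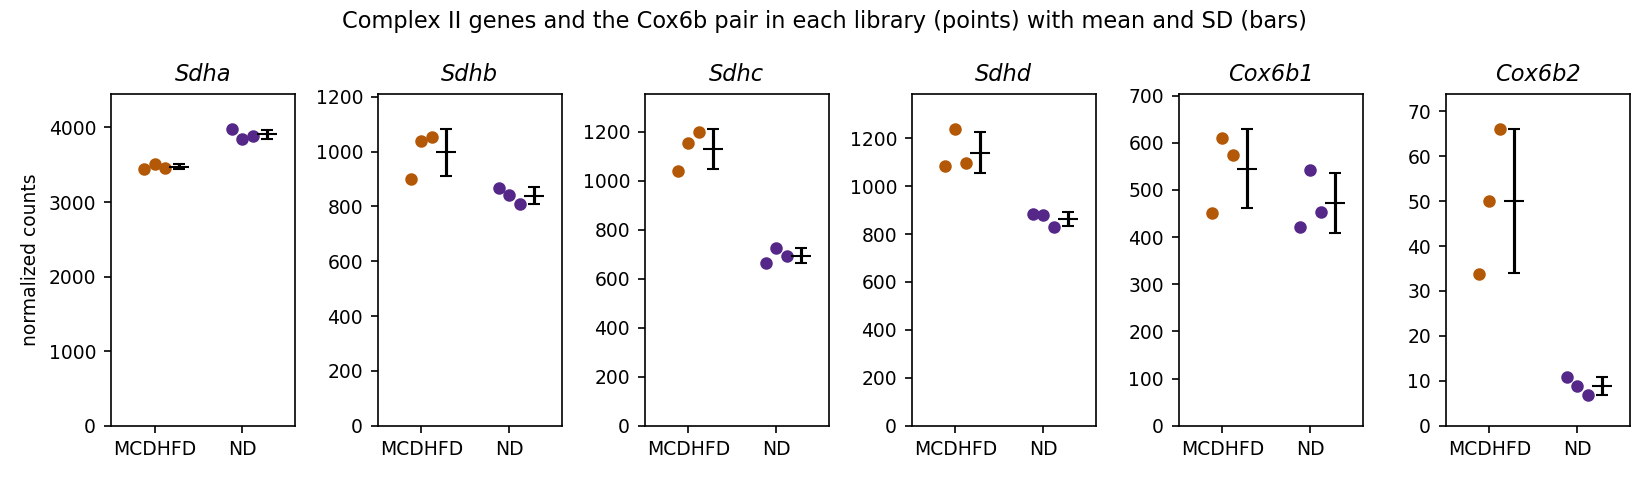
Normalized counts of the complex II genes and of the Cox6b pair, with 1 point per library, MCDHFD left of ND, and the mean and SD (n = 3) beside the points. Each vertical axis starts at 0. Sdha is lower in MCDHFD while Sdhb, Sdhc, Sdhd and Cox6b2 are higher, and the diets overlap for Cox6b1.

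Complex I passed in 13 of 42 members (30.95%, against 58.4% of all tested genes), 8 higher and 5 lower. Among the 7 nuclear genes of its catalytic core, which carry the flavin and the iron-sulphur clusters, 3 rose, and the other 4 did not pass and had log2 fold changes between 0.02 and 0.15. Ndufv2 had 750.1, 725 and 748 normalized counts in MCDHFD and 566, 507 and 554 in ND. It carries an iron-sulphur cluster of the NADH-oxidising tip, and its log2 fold change was 0.45 (SE 0.07, adjusted p = 5.00e-04 in limma). Ndufs1, the largest iron-sulphur subunit of the complex, had 1400.5, 1474 and 1389 in MCDHFD and 1128, 1164 and 1123 in ND (log2 fold change 0.32, limma adjusted p = 9.22e-04). Ndufs7, which bears the last cluster before ubiquinone, averaged 700.3 ± 40.8 in MCDHFD and 586 ± 42.7 in ND (log2 fold change 0.26, limma adjusted p = 0.0199). The call of Ndufs7 was lost without MCDHFD replicate 3, ND replicate 1 or ND replicate 2 (largest limma adjusted p = 0.0728) and under quantile scaling.

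The 28 accessory genes of complex I were divided, with 3 higher and 4 lower (25% called, against 58.4% of all tested genes). Ndufa9, an accessory subunit at the joint of the matrix arm and the membrane arm, had 468, 606 and 487 normalized counts in MCDHFD and 780.2, 839.5 and 743 in ND. Its log2 fold change of -0.61 (SE 0.10, adjusted p = 0.00104 in limma) was the lowest among the tested members. Ndufb2, of the membrane arm, had 109, 113 and 126 in MCDHFD and 177, 173 and 178 in ND (log2 fold change -0.60, limma adjusted p = 0.00192). Both were lower in every MCDHFD library, with no overlap. Ndufa6, which binds at the ubiquinone end of the matrix arm, averaged 621 ± 49.0 in MCDHFD and 813 ± 67.7 in ND (log2 fold change -0.39, limma adjusted p = 0.00431). Ndufs5, a small subunit on the intermembrane side, averaged 94.9 ± 21.4 in MCDHFD and 131 ± 3.69 in ND, with a log2 fold change of -0.48 close to the threshold (limma adjusted p = 0.0456). The Ndufs5 call was lost in 5 of the fits that left out 1 library, in every one but that without MCDHFD replicate 2 (largest limma adjusted p = 0.110), in both count tests and when its processed pseudogene BC002163 was added to it. The accessory genes that rose were Ndufv3 (664 ± 68.8 in MCDHFD, 520.2 ± 47.1 in ND, log2 fold change 0.35), Ndufc2 (372 ± 9.32 in MCDHFD, 297 ± 30.0 in ND, 0.33) and Ndufb8 (426 ± 28.8 in MCDHFD, 340.3 ± 23.1 in ND, 0.32), with limma adjusted p between 0.0131 and 0.0167. Without ND replicate 3 the call of Ndufc2 was lost (limma adjusted p = 0.0580), as it was in both count tests, which left out the same library.

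Complex III held 10 members, of which 1 rose and 1 fell (20% called, against 58.4% of all tested genes). Its 3 redox subunits did not pass: Cyc1, cytochrome c1, averaged 1039 ± 35.3 normalized counts in MCDHFD and 950.8 ± 7.14 in ND (log2 fold change 0.13, limma adjusted p = 0.0805). The other 2 redox subunits, the Rieske iron-sulphur protein gene Uqcrfs1 and mt-Cytb, had log2 fold changes of 0.02 and 0.07. Uqcrh, the hinge protein that docks cytochrome c to the complex, had 783, 841 and 764 in MCDHFD and 1087, 984 and 1077 in ND. It fell without overlap (log2 fold change -0.40, SE 0.07, adjusted p = 9.72e-04 in limma). Uqcr11, a small membrane subunit, averaged 137 ± 10.4 in MCDHFD and 97.0 ± 11.2 in ND (log2 fold change 0.49, limma adjusted p = 0.0138), a call lost without MCDHFD replicate 3 (limma adjusted p = 0.0522) and in both count tests. The largest change among members of the complex that did not pass was that of Uqcrc2, a core protein (1582 ± 155 in MCDHFD, 1771 ± 55.5 in ND, log2 fold change -0.17).

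Cycs, cytochrome c itself, averaged 72.2 ± 7.14 normalized counts in MCDHFD and 67.0 ± 6.72 in ND and did not pass (log2 fold change 0.11, limma adjusted p = 0.606). The table also lists Gm10053 on chromosome 19, 99.9% identical over 946 bases to the Cycs transcript, at 700.2 ± 36.9 in MCDHFD and 754 ± 44.0 in ND. The listed copy held about 10 times the counts of Cycs in both diets, so the level of Cycs by itself is uncertain.

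Complex IV passed in 2 of its 16 tested members (12.5%, against 58.4% of all tested genes), both higher and both nuclear. Cox6b2, described as the testis form of a subunit that faces the intermembrane space, had 33.9, 50.1 and 66.0 normalized counts in MCDHFD and 10.8, 8.76 and 6.93 in ND. The lowest MCDHFD library was about 3 times the highest ND library, the log2 fold change was 2.35 (SE 0.32, adjusted p = 2.81e-04 in limma), and it was the largest of all members at one of the lowest levels. The widely expressed form, Cox6b1, had 451, 610.3 and 575 in MCDHFD and 421, 543 and 453 in ND. Cox6b1 overlapped between the diets (log2 fold change 0.20, limma adjusted p = 0.222), and the ratio of Cox6b2 to Cox6b1 was 0.0907 ± 0.0212 in MCDHFD and 0.0190 ± 0.00572 in ND (SD, n = 3 each). The rule for isoforms named this pair among others, but a ratio was taken for this isoform pair alone, which holds the member with the largest change. Its exact two-sided permutation test gave p = 0.1, the smallest possible. Per kilobase of exon Cox6b2 stood at 45.1 in MCDHFD and 7.96 in ND, Cox6b1 at 770.3 in MCDHFD and 667 in ND.

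Cox6b2 lies on chromosome 7 (4751792 to 4753094, minus strand). As the member with the largest change, its start region is shown, chr7:4753045-4753344 on the minus strand of GRCm38.p6, from RefSeq.
Cox6b2: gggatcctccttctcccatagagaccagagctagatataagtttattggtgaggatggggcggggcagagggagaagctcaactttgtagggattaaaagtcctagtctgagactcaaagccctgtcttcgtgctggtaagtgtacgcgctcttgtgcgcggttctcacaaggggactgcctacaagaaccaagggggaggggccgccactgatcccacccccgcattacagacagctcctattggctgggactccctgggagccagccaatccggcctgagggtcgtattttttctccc
It held none of the searched patterns, so no letters are in capitals.

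Cox5a, a subunit on the matrix side of the complex, had 765, 927 and 870.2 normalized counts in MCDHFD and 631, 663 and 739 in ND (log2 fold change 0.33, SE 0.09, adjusted p = 0.0124 in limma). The diets were separated by a narrow gap, and the call held in each of the 6 fits without 1 library. The mitochondrially encoded core subunits mt-Co1, mt-Co2 and mt-Co3 had log2 fold changes of 0.09, 0.15 and 0.07 and did not pass.

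Other isoform pairs of complex IV gave no call. Cox4i1, the common form of subunit 4, averaged 2081 ± 316 normalized counts in MCDHFD and 1853 ± 257 in ND (limma adjusted p = 0.276), while Cox4i2, the form linked to low oxygen in lung, had 1.88, 11.8 and 5.59 in MCDHFD and 0, 4.86 and 0 in ND and was too low to be tested. Cox6a1, the liver-type form, averaged 1542 ± 128 in MCDHFD and 1666 ± 88.1 in ND (limma adjusted p = 0.213). Cox6a2, the heart and muscle form, was at 0 in all 3 MCDHFD libraries and at 5.87, 10.7 and 8.91 in ND. Its ND mean was 2.79-fold above a floor of 3 counts per MCDHFD library. That floor covers the counting error of the MCDHFD zeros only, not that of the low ND counts, and Cox6a2 stayed below the filter. Its exons share 70 bases with Itgad on the opposite strand, and no source used here says whether the counting used strand. Cox7a2l, a factor of respiratory supercomplexes, averaged 3485 ± 247 in MCDHFD and 3946 ± 257 in ND (limma adjusted p = 0.0547), without overlap. Cox8a averaged 1724 ± 111 in MCDHFD and 1530.0 ± 79.2 in ND (limma adjusted p = 0.0525), also without overlap, and Cox7a2, Cox7b and Ndufa4 had log2 fold changes of 0.05, -0.10 and 0.17. The largest change among members of complex IV that did not pass was -0.31, of Cox7c (343 ± 60.5 in MCDHFD, 426 ± 80.6 in ND).

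Complex V passed in 7 of its 20 tested members (35%, against 58.4% of all tested genes), 5 higher and 2 lower, and 2 of the 5 were mitochondrially encoded. Of the 5 genes of the F1 head, which makes the ATP, Atp5a1 alone passed: the alpha subunit had 8156, 7815 and 7597 normalized counts in MCDHFD and 6878, 6982 and 7050.1 in ND (log2 fold change 0.17, limma adjusted p = 0.0143), a call that was lost in edgeR. The beta subunit, Atp5b, was also higher in every MCDHFD library (8936 ± 159 in MCDHFD, 8267 ± 78.4 in ND) but did not pass (log2 fold change 0.11, limma adjusted p = 0.0619). The 3 c-ring genes encode the same mature rotor protein. They had log2 fold changes of 0.13 (Atp5g1), 0.44 (Atp5g2) and 0.21 (Atp5g3) and did not pass (limma adjusted p = 0.409, 0.217 and 0.0694).

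The peripheral stalk, which holds the head still, was divided. Atp5o, the subunit that confers oligomycin sensitivity, averaged 1121 ± 53.7 normalized counts in MCDHFD and 954.8 ± 92.6 in ND (log2 fold change 0.23, limma adjusted p = 0.0327). Its call was lost without MCDHFD replicate 2 or 3 or ND replicate 1 or 2 (largest limma adjusted p = 0.114), under quantile scaling and with equal totals outside the mitochondrial genes. Atp5j, the coupling factor 6, had 639, 685 and 729 in MCDHFD and 818, 823 and 817 in ND, and fell without overlap (log2 fold change -0.26, SE 0.07, adjusted p = 0.00930 in limma). Its exons share 397 bases with Gabpa on the opposite strand. Of the small membrane subunits, Atp5mpl averaged 348 ± 36.3 in MCDHFD and 263 ± 29.6 in ND (log2 fold change 0.41, limma adjusted p = 0.0156), and Atp5k, which takes part in dimers of the enzyme, averaged 63.4 ± 8.68 in MCDHFD and 91.6 ± 18.6 in ND (log2 fold change -0.51, limma adjusted p = 0.0461). The Atp5k call was lost without MCDHFD replicate 1 or 2 or ND replicate 2 or 3 (largest limma adjusted p = 0.165), and that of Atp5mpl without MCDHFD replicate 2 or 3 or ND replicate 3 (largest limma adjusted p = 0.0568). Both were lost in edgeR and DESeq2, which also left out ND replicate 3.

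All 13 subunit genes of the mitochondrial genome passed the filter, and they did not move as a block: 4 rose, 1 fell and 8 did not pass (38.46% called, against 58.4% of all tested genes). These genes are transcribed as long precursors and cut apart, so a difference between neighbours is measured within one transcript unit. On the strand that carries all of them but mt-Nd6, levels per kilobase of exon ran, in MCDHFD, from 7599 for mt-Nd3 to 157920 for mt-Co1. In ND they ran from 7558 for mt-Nd3 to 149009 for mt-Co1. The single gene of the other strand, mt-Nd6, stood at 184 per kilobase in MCDHFD and 245 in ND.

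mt-Nd1, a core subunit at the ubiquinone site of complex I, had 50144, 53030 and 55131 normalized counts in MCDHFD and 44432, 38780 and 35864 in ND. It rose by 0.42 on the log2 scale (SE 0.09, limma adjusted p = 0.00296), the largest rise among mitochondrial genes. mt-Nd2, its neighbour on the genome (mt-Nd1 at 2751 to 3707, mt-Nd2 at 3914 to 4951 of the mitochondrial chromosome) and another membrane subunit of complex I, had 24643, 23545 and 25849 in MCDHFD and 33389, 29304 and 27902 in ND. It fell (log2 fold change -0.29, SE 0.08, adjusted p = 0.0109 in limma), and neither gene overlapped between the diets. The ratio of mt-Nd1 to mt-Nd2 was 2.03, 2.25 and 2.13 in the MCDHFD libraries and 1.33, 1.32 and 1.29 in the ND libraries. This ratio, which a single factor per library leaves as it is, varied little within a diet and gave p = 0.1 in the two-sided exact permutation test, the smallest possible, for a pair chosen after its values were seen.

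The ATP synthase genes mt-Atp6 and mt-Atp8, which lie next to each other and share 43 bases, both rose. mt-Atp6, the proton channel subunit, had 77187, 78110 and 83400.1 normalized counts in MCDHFD and 70540, 60319 and 55207 in ND (log2 fold change 0.37, SE 0.10, adjusted p = 0.00925 in limma). mt-Atp8 averaged 19012 ± 689 in MCDHFD and 15453 ± 2026 in ND (log2 fold change 0.31, limma adjusted p = 0.0155). mt-Nd5, a proton-pumping subunit of complex I, averaged 53021 ± 1499 in MCDHFD and 45155 ± 2491 in ND (log2 fold change 0.23, limma adjusted p = 0.0136). For these genes ND replicate 1 was the highest ND library each time, and no MCDHFD library reached down to it. Under quantile scaling mt-Nd5 turned to -0.02 and mt-Atp6 and mt-Atp8 no longer passed. The calls of mt-Atp8 and mt-Nd5 were also lost without MCDHFD replicate 3, ND replicate 2 or ND replicate 3 (largest limma adjusted p = 0.0618 and 0.0653). In edgeR the calls of mt-Atp6, mt-Atp8 and mt-Nd5 were lost, and in DESeq2 that of mt-Atp8, both run without ND replicate 3.

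The other 8 did not pass. mt-Cytb averaged 54167 ± 1031 normalized counts in MCDHFD and 51661 ± 1901 in ND, mt-Co1 243986 ± 5065 in MCDHFD and 230219 ± 16702 in ND, mt-Co2 54248 ± 1814 in MCDHFD and 48979 ± 3538 in ND, and mt-Co3 52100 ± 902 in MCDHFD and 49586 ± 3908 in ND. These 4, with mt-Atp6, had the highest mean counts of all members. mt-Nd3, mt-Nd4l and mt-Nd4 had log2 fold changes of -0.0029, 0.08 and 0.12. mt-Nd6 had 102, 96.3 and 88.4 in MCDHFD and 160, 101 and 121 in ND (log2 fold change -0.39, limma adjusted p = 0.0953). It was the lowest mitochondrial gene in every library. mt-Nd6 is the only mitochondrial member on its strand, and 14 of its bases (2.70% of its exon) lie opposite mt-Nd5. How far its value depends on the strand setting of the counting was not tested.

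**Figure D3:**
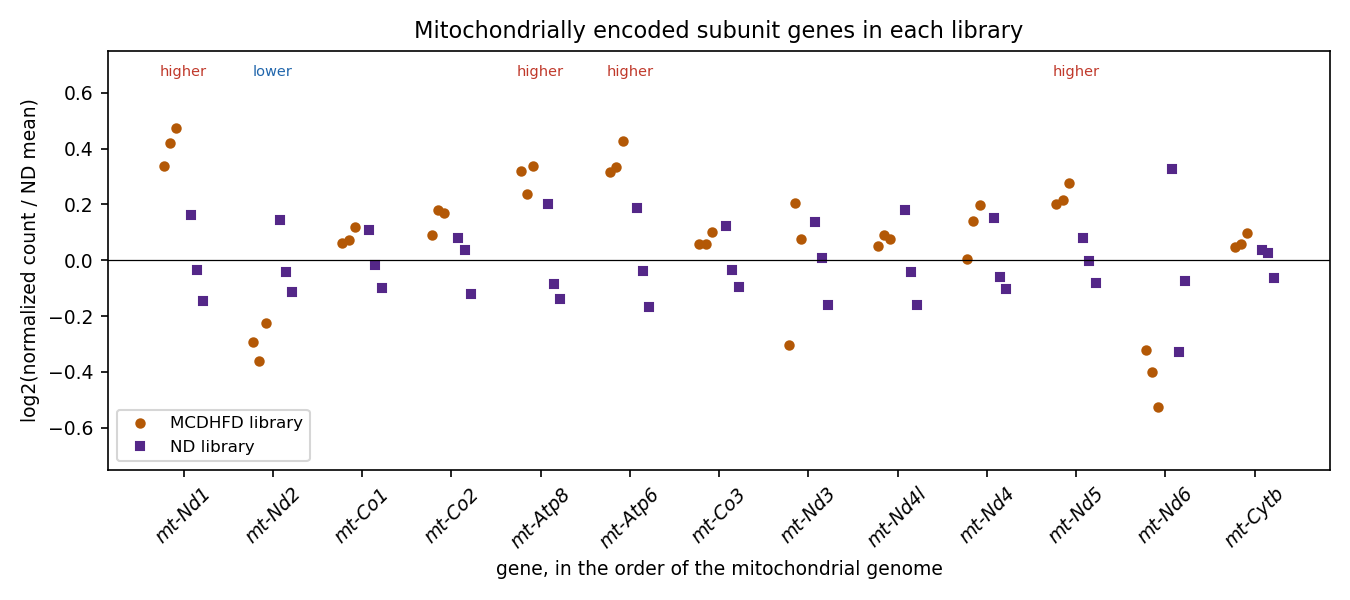
Log2 of each library's normalized count over the ND mean, for the 13 mitochondrially encoded subunit genes in genome order, with MCDHFD libraries as circles and, to their right, ND libraries as squares. Words at the top mark the genes that passed the limma test with the deposited scaling. mt-Nd1, mt-Atp8, mt-Atp6 and mt-Nd5 lie higher and mt-Nd2 lower in MCDHFD, and the ND libraries spread most for mt-Nd6.

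Mitochondrial genes have near-identical copies in the nuclear genome, and several are listed with counts of their own. Gm10925 on chromosome 1 matches mt-Atp6 at 100% over 678 bases and held 18215 ± 1099 normalized counts in MCDHFD and 13456 ± 1033 in ND, and it rose like mt-Atp6 (log2 fold change 0.44, limma adjusted p = 8.40e-04). Gm28661 (mt-Co2), Gm28437 (mt-Co3) and Gm28439 (mt-Nd4) on chromosome 1 also rose, by 0.22, 0.17 and 0.25 on the log2 scale, while the genes they copy did not pass. Reads that fit a gene and its copy equally well may have been counted to either, so the values of single members with a listed copy are uncertain. For 9 mitochondrial and 5 nuclear members, listed copies were added to the member, a choice made after seeing the data. With these sums, 19 members passed as higher and 9 as lower, and 27 of the 28 calls were kept. mt-Nd2 has only a minor listed copy, Gm13339, with 16.9, 24.6 and 24.6 normalized counts in MCDHFD and 32.3, 24.3 and 26.7 in ND.

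Of the 84 nuclear members, 20 had a transcript elsewhere in the annotation with at least 95% identity over at least 200 bases, and for 9 such a match was listed in the table. The match of Atp5l was Senp6, another protein-coding gene. Atp5l and the pseudogene members were left out of the sums with copies. Atp5h, a stalk subunit, averaged 666 ± 31.6 normalized counts in MCDHFD and 743 ± 65.5 in ND and did not pass. Its processed pseudogene Gm10250 averaged 684 ± 35.4 in MCDHFD and 881 ± 52.5 in ND and fell (log2 fold change -0.36, limma adjusted p = 0.00216). Cox5b averaged 612 ± 25.4 in MCDHFD and 655 ± 39.9 in ND, beside Gm11273 at 359 ± 21.5 in MCDHFD and 322 ± 26.7 in ND. None of the complex II genes, and neither Ndufa9, Ndufv2, Uqcrh nor Cox6b2, had a listed copy. These copies were named after their values were seen.

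Summed over its members, the nuclear part of the chain took nearly the same share of the transcriptome in both diets. The 84 nuclear members took 0.486%, 0.524% and 0.494% of normalized counts in the MCDHFD libraries and 0.491%, 0.510% and 0.4997% in the ND libraries. The means, 0.501% ± 0.0200 in MCDHFD and 0.5001% ± 0.00931 in ND, differed by less than the spread between libraries. The 13 mitochondrial genes took 4.65%, 4.73% and 4.85% in MCDHFD and 4.78%, 4.40% and 4.14% in ND. Their means of 4.75% ± 0.103 in MCDHFD and 4.44% ± 0.323 in ND differed by 0.306 percentage points, close to the SD of the ND libraries, and ND replicate 1 lay within the MCDHFD range. Leaving out that library widened the difference to 0.4765 points, and leaving out ND replicate 3 narrowed it to 0.155. With erythroid, plasma cell and macrophage genes left out of the total, the nuclear share was 0.520% ± 0.0224 in MCDHFD and 0.504% ± 0.00971 in ND. The mitochondrial share was then 4.92% ± 0.123 in MCDHFD and 4.47% ± 0.323 in ND, a difference of 0.4504 above the SD of either diet. Those lists took larger shares in MCDHFD, so leaving them out raises MCDHFD shares more than ND shares by construction. The dendritic and CD8 T cell identity lists, which took larger shares in ND, stayed in the total. Whole-RNA and mRNA kits capture RNA with short or missing poly(A) tails to different degrees, and the labels do not give the kit of each library. Transcripts of 61 replication histone genes, which lack such tails, took 0.0153% to 0.0158% in MCDHFD and 0.0186% to 0.0211% in ND, without overlap. Whether the kit differed between libraries, and its part in the mitochondrial values, was not tested.

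By complex, the nuclear share of complex III was 0.0582% ± 0.00160 in MCDHFD and 0.0616% ± 0.000637 in ND, lower in each MCDHFD library. The median log2 fold change of its 9 nuclear genes was 0.03. Shares divide by the library total, which was larger in each MCDHFD library (14571599 to 14752121) than in any ND library (14119816 to 14310560). The share of the mitochondrial genes of complex V was 0.673% ± 0.0213 in MCDHFD and 0.546% ± 0.0649 in ND, higher in each MCDHFD library. The nuclear share of complex V was 0.185% ± 0.00478 in MCDHFD and 0.179% ± 0.00148 in ND, and that of complex I 0.117% in both diets. The shares of complex II and complex IV overlapped between the diets. In the same libraries the CD8 T cell identity list took 0.411% ± 0.0347 in MCDHFD and 0.778% ± 0.00553 in ND, and the macrophage list 3.29% ± 0.345 in MCDHFD and 0.673% ± 0.0689 in ND.

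**Figure D4:**
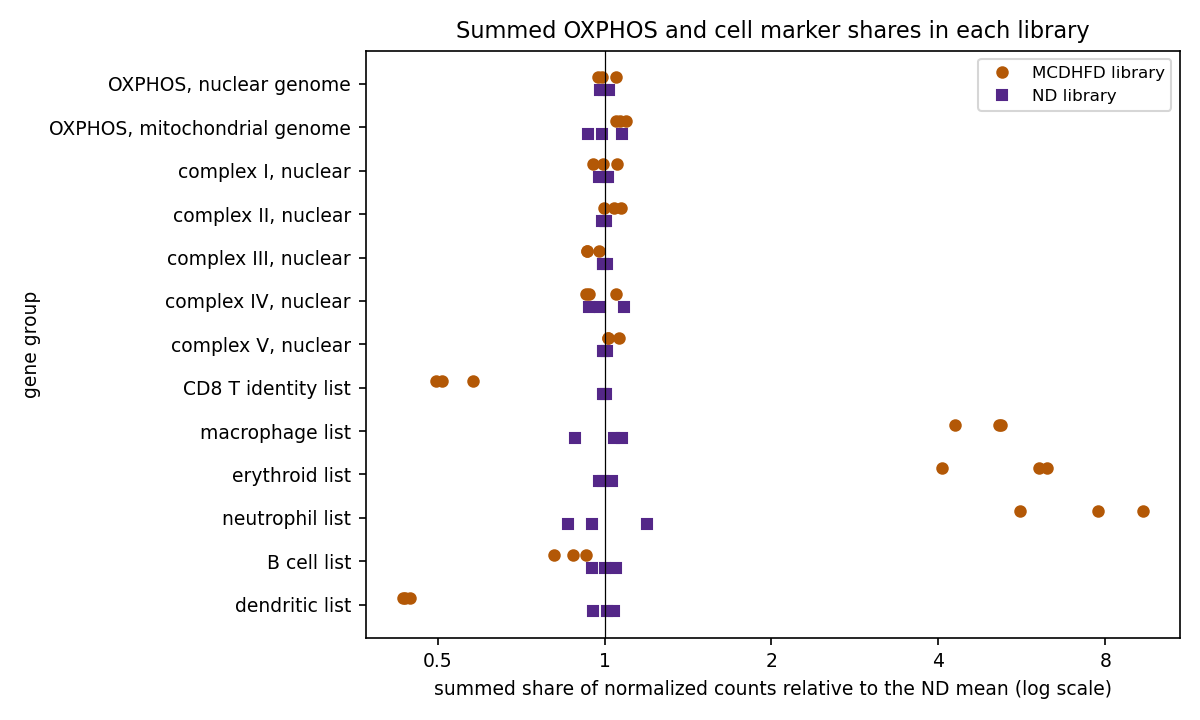
Summed share of normalized counts relative to the ND mean, on a log axis, for groups of OXPHOS subunit genes and for cell marker lists, with 1 point per library and MCDHFD circles above ND squares. The OXPHOS groups lie close to 1 in all libraries, while the macrophage, erythroid and neutrophil lists lie above 4 and the CD8 T identity and dendritic lists below 0.6 in MCDHFD.

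Some start regions of the nuclear members held sequence patterns that the choice by symbol did not use. RefSeq start regions of the same 300 bases were found for 64 of the 84 nuclear members, 69 regions in all. The NRF1 pattern was present in 18 of these 69 (26.1%), against 4.6% of 32851 mouse start regions. The GABPA pattern was present in 16 (23.2%), against 8.86%, and AAGATGGCG, the pattern of the factor YY1, in 7 (10.1%), against 1.4%. Both strands were searched, the patterns do not contain each other, and the letters were settled after start regions had been read. The shares are therefore a description of letters and not a test. Among the members described above, Uqcrh, which fell, and Sdhb, which rose, both held the GABPA pattern, Ndufa9 held the YY1 pattern and Ndufv2 held none of the 3.

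Companion genes of OXPHOS, in 9 lists, were read from the same fit. Of 140 tested companion genes, 31 were higher and 27 lower (41.4% called, against 58.4% of all tested genes), with a median log2 fold change of -0.04. Over all tested genes 30.3% were higher and 28.1% lower, and the counts of each list below stand against these shares. Assembly factors build the complexes but are not part of them. Of 19 factors of complex I, 6 fell and 1 rose (36.8% called, below the share of all tested genes). Timmdc1, which assembles the membrane arm, had 97.9, 125 and 94.0 normalized counts in MCDHFD and 245, 189 and 242 in ND (log2 fold change -1.09, limma adjusted p = 3.78e-04). Ndufaf5 (-0.73) and Ndufaf3 (-0.69) fell too, and Nubpl, which inserts iron-sulphur clusters, rose (0.73).

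Of 6 tested factors of complex III, 4 fell and 1 rose. Bcs1l, which inserts the Rieske protein, averaged 82.4 ± 6.86 normalized counts in MCDHFD and 149.7 ± 6.60 in ND (log2 fold change -0.86, limma adjusted p = 4.98e-04), and Lyrm7, the chaperone of the Rieske protein, fell by 0.97 on the log2 scale. Uqcc2 (-0.74) and Uqcc3 (-0.46), needed for cytochrome b, fell as well, and Ttc19 rose (0.33). The Rieske gene Uqcrfs1 had 1365, 1365 and 1372 in MCDHFD and 1354, 1346 and 1336 in ND. Of 25 factors of complex IV, 5 fell and 1 rose, with Coa6, a copper chaperone, at 58.4 ± 5.14 in MCDHFD and 122 ± 21.9 in ND (log2 fold change -1.04, limma adjusted p = 0.00101). Coa3 (-0.57) and Cox16 (-0.52) fell, and Taco1, the translational activator of mt-Co1, rose (0.40). Of 7 factors of complex V, 2 rose: Atpif1, the inhibitor of ATP hydrolysis by the synthase (589 ± 80.3 in MCDHFD, 341 ± 8.31 in ND, log2 fold change 0.78, limma adjusted p = 2.53e-04), and Tmem70 (0.59).

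The genes that keep and express mitochondrial DNA were divided, with 5 of 29 higher and 6 lower. Polrmt, the mitochondrial RNA polymerase, had 556, 526 and 547 normalized counts in MCDHFD and 755, 744 and 770.0 in ND, and fell (log2 fold change -0.48, limma adjusted p = 1.92e-04). Polg, the DNA polymerase of mitochondria, fell to 925 ± 52.0 in MCDHFD, against 1458 ± 17.1 in ND (log2 fold change -0.66). Tfb1m, an rRNA methyltransferase of the mitochondrial ribosome, showed the lowest fold change of the list (47.5 ± 7.81 in MCDHFD, 138 ± 17.8 in ND, -1.52). Grsf1, which binds RNA in mitochondrial granules, rose (1374 ± 98.9 in MCDHFD, 914 ± 46.0 in ND, 0.59), as did Tefm (0.54), the elongation factor of the polymerase.

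Of 13 tested carriers and uncoupling genes, 7 rose and 1 fell (61.5% called, near the share of all tested genes). Ucp2, an uncoupling protein of immune cells, had 13171, 14818 and 15508 normalized counts in MCDHFD and 7990, 8312 and 8817 in ND (log2 fold change 0.79, limma adjusted p = 2.07e-05). Ucp3, its relative known from muscle, had 330, 274 and 268 in MCDHFD and 10.8, 18.5 and 23.8 in ND (log2 fold change 4.03, limma adjusted p = 3.16e-06), the largest change of all companion genes. Slc25a24, the ATP-Mg carrier, rose (1.07) and Slc25a27 fell (-0.80). Both uncoupling genes were higher in every MCDHFD library than in any ND library. The macrophage list, higher in the same libraries, was given above, and which cells these transcripts came from was not tested.

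Genes that feed electrons to ubiquinone beside complexes I and II, or make ubiquinone, were higher in 8 of 22 and lower in 3 (50% called, below the share of all tested genes). Sqor, which oxidises sulphide, had 238, 275 and 291 normalized counts in MCDHFD and 101, 73.9 and 74.2 in ND (log2 fold change 1.69, limma adjusted p = 2.35e-05). Prodh, proline dehydrogenase, rose (49.2 ± 8.92 in MCDHFD, 13.1 ± 0.480 in ND, 1.82), as did Pdss1, which makes the tail of ubiquinone (1.05), and Aifm2, which reduces ubiquinone outside the inner membrane (2.88). Of 15 regulators of the chain, 6 rose and 1 fell: Pparg (1.32), Ppargc1b (0.46), Esrra (0.38) and Ppard (0.32) had the largest changes, all upward. Pparg, a nuclear receptor of lipid metabolism, averaged 488 ± 68.3 in MCDHFD and 194 ± 15.9 in ND.

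**Figure D5:**
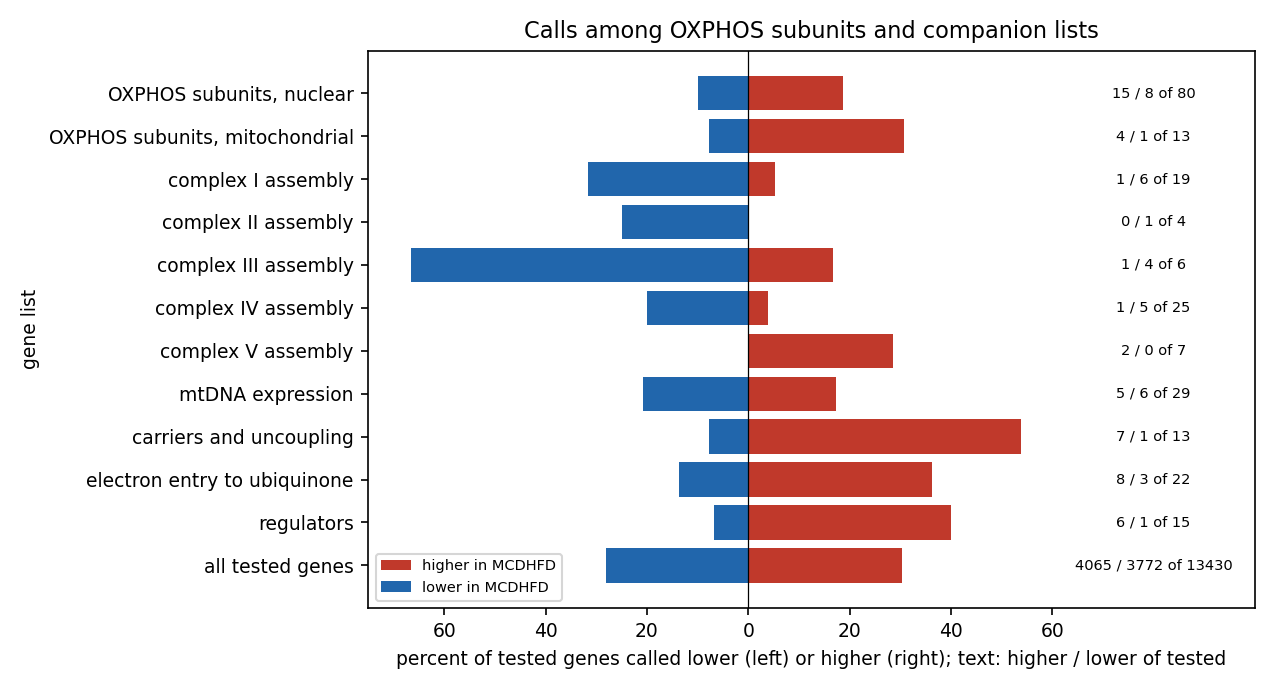
Percent of tested genes that passed the limma test as lower (left of 0) or higher (right of 0) in MCDHFD, for the OXPHOS subunit genes, 9 companion lists and all tested genes, with the deposited scaling. The numbers at the right give higher and lower calls of tested genes. Lower calls among assembly factors were 6 of 19 for complex I, 1 of 4 for complex II, 4 of 6 for complex III and 5 of 25 for complex IV. Among these lists, only that of complex III had a share called (83.3%) above that of all tested genes (58.4%). Carriers, genes that feed ubiquinone and regulators had more higher than lower calls. The bars of all tested genes extend to both sides, with 30.3% higher and 28.1% lower.

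The 28 calls differed in how firmly they held. Of them, 18 were called in each of the 6 fits without 1 library, among them Sdha, Sdhc, Sdhd, Ndufa9, Ndufb2, Ndufa6, Ndufv2, Ndufs1, Uqcrh, Cox5a, Cox6b2, Atp5j, mt-Nd1, mt-Nd2 and mt-Atp6. The number called as higher was 12 without MCDHFD replicate 3. On the whole reads recovered from 5 libraries, without ND replicate 3, edgeR's quasi-likelihood test called 11 members higher and 8 lower and kept 18 of the 28 calls, against 53.1% of tested genes called. DESeq2 called 14 higher and 7 lower and kept 21, against 50.0% of tested genes.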

How the data were processed

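RNA was sequenced from primary CD8+ T cells of spleen, 3 libraries per diet, grouped by the diet in their labels. Libraries of the TRIzol-extracted RNA were made with 1 of 2 kits, for whole RNA or for mRNA, as the labels' protocols state. The kit of each library, the aligner, the counter, strand settings and the authors' annotation are not stated in the sources. The build was mm10, per the submitters' processing notes.

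The deposited table holds a signal that the authors made by scaling read counts, called normalized counts, for 19323 Ensembl genes, per the file headers. Dividing by the smallest value above 0 gave whole reads for 100% of values (tolerance 0.01) in 5 libraries, 13188812 to 15482458 reads each. The values of ND replicate 3, divided by its smallest (0.990), were also whole for 100%. That step, the closest to 1, was not accepted as a read unit, although 0.983 in MCDHFD replicate 2 was. Count tests therefore used the other 5 libraries, with 2 of ND, by choice. There were 0 unassigned value columns. Symbols were matched by identifier for 19202 genes, and exons, overlaps and copies were read from GENCODE on GRCm38.

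Genes with a mean of at least 10 were tested as log2(value + 1) with limma 3.58.1 (pseudocount 1, intensity trend, diet as the only term, R 4.3.3), and p-values were adjusted by Benjamini-Hochberg over all 13430 genes. Fold changes on that scale understate those of low genes. Fits were tested on simulated data. Members and lists were chosen with earlier results of these data known. Named were all mitochondrial members, complex II, Cyc1 and Cycs, every member that passed, isoform partners, the 5 highest means, the largest change per complex with and without a call, and up to 4 passing genes per companion list by size of change. Outside that rule, Uqcrfs1, Atp5b, Ttc19, Polrmt and the listed copies were named after their values were seen. Per kilobase values divide by the merged annotated exon length, whose mappable part may differ. Start regions came from RefSeq.

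Alternatives were other pseudocounts and filters, TMM, quantile, equal-identity and non-mitochondrial scaling, library weights, a block for the replicate number, fits without each library, a stricter threshold, and edgeR 4.0.16 and DESeq2 1.42.0 on recovered reads. Floors cover counting error alone, because PCR copies were not told apart by molecular identifiers. Replicate libraries differed beyond counting noise (chi-square per degree of freedom 6.41 to 12.3 in 4 pairs), so none was counted as a duplicate.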

Additional observations from a re-analysis of the deposited data

How the results depend on the processing

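The scaling of the libraries moved the results most. Under quantile scaling 18 subunit genes passed as lower and the mitochondrial median log2 fold change was -0.0340, and mt-Nd5 (-0.0244), mt-Nd4 (-0.13), mt-Cytb (-0.17) and mt-Co3 (-0.26) changed sign. With CD8 T identity set equal, 91 passed as higher and 0 as lower, the medians were 1.05 (nuclear) and 1.09 (mitochondrial), and these genes turned positive: Sdha (0.83), Ndufa9 (0.39), Ndufb2 (0.40), Ndufa6 (0.61), Ndufs5 (0.51), Uqcrh (0.60), Uqcrc2 (0.83), Atp5j (0.74), Atp5k (0.47), Atp5h (0.85), Atp5l (0.93), Cox5b (0.90), Cox6a1 (0.89), Cox7a2l (0.82), Cox7b (0.90), Cox7c (0.69), mt-Nd2 (0.71), mt-Nd3 (0.998) and mt-Nd6 (0.61). That scaling shifts every gene by construction. On recovered reads without ND replicate 3, edgeR called 11 members higher and kept 18 of 28 calls, with a mitochondrial median of 0.028, and DESeq2 gave a mitochondrial median of 0.032. At an adjusted p threshold of 0.01, 7 members were higher and 5 lower, and 12 calls were kept, as a stricter threshold must lower them. The cause of the other differences was not tested.

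Leaving out 1 library at a time gave 12 to 23 members higher, 8 to 10 lower, and a mitochondrial median of 0.038 to 0.173. The lowest count of higher members came without MCDHFD replicate 3, and the lowest median without ND replicate 3. The difference in the mitochondrial share, 0.306 percentage points, ran from 0.155 without ND replicate 3 to 0.4765 without ND replicate 1. It was 0.361 with copies added. With the erythroid, plasma cell and macrophage lists, larger in MCDHFD, left out of the total, it was 0.4504, a widening that follows by construction. That of the nuclear share ran from -0.0104 without MCDHFD replicate 2 to 0.0159 without those cell genes in the total.

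The replicate number taken as a block gave 21 members higher and 10 lower and kept all 28 calls. Deviations of same-numbered libraries correlated at 0.0365, 0.0621 and 0.00572, under the 0.1 required, so the number was not taken to pair them. Not every library correlated best with its own number: ND replicate 3 did so with MCDHFD replicate 1 (0.0197).

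Depth limits Cox4i2, Cox6a2 and 2 of the 3 pseudogenes, which stayed under the filter.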
